A study of Homo sapiens with 6 samples.

Results

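The genes of the proteasome were examined in RNA-seq of PC9 cells with and without knockdown of the splicing factor RBM10. Members were taken by symbol: PSM, a letter from A to G and a number, leaving out the inducible subunits PSMB8 and PSMB9. The pattern matched 46 of the 16306 genes in the table per gene. Of these, 44 encode subunits, activators, an inhibitor or assembly chaperones of the proteasome, and the remaining 2, PSMC3IP and PSME3IP1, encode other products and were kept apart. The 44 genes fall into 14 of the constitutive core particle (7 alpha and 7 beta), the inducible core subunit PSMB10, 17 of the regulatory particle (6 base ATPases, 3 other base subunits and 8 lid subunits), 5 activators or regulators and 7 assembly chaperones. All 44 passed the filter on low counts, which left 12620 genes. The testis subunit PSMA8 and the thymus subunit PSMB11 have no line in the table.

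The proteasome degrades proteins that carry ubiquitin chains. Its core particle is a barrel of stacked rings, in which the outer alpha rings gate the entry and the inner beta rings hold the proteolytic sites. The regulatory particle caps the barrel: its lid removes the ubiquitin chain, and the ATPases of its base unfold the substrate and thread it into the core. Cells adjust the subunit genes together when proteasome activity falls short, through the transcription factor NFE2L1, and interferon induces the alternative subunits of the immunoproteasome.

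PC9 is a human lung adenocarcinoma line with an activating deletion in EGFR. The study compared 3 libraries of PC9 cells carrying a negative control shRNA (sh-NC) with 3 libraries of PC9 cells carrying an shRNA against RBM10 (shRBM10), to find what changes when RBM10 is low. No other agent, time or dose is given for either group. The columns of the knockdown libraries carry SH1 and the sample titles SH1 to SH3, and no source ties these to one of the RBM10 shRNAs used in the study. The column names tie the sh-NC libraries to replicates 1 to 3, but of the shRBM10 libraries only A matches a sample title, so B and C are used without a replicate number. The labels call the libraries replicate biosamples, and the methods say in general that experiments were repeated independently, without naming the cultures behind these libraries. Where the libraries of a group share a culture, p-values measure only the spread between these libraries, which may be technical. The protocol given with the samples names retinas as the source and 2 kits for library construction, without tying a kit to a library. Fewer cells of a kind and less RNA per cell cannot be told apart in such bulk samples.

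Total counts lay between 16606390 and 18864243 per library. RBM10 itself was at 1431, 1183 and 1469 normalized counts in the sh-NC libraries and at 537, 515 and 672 in the shRBM10 ones, with no overlap. Its log2 fold change was -1.24 (SE 0.23, adjusted p = 0.100, quasi-likelihood test of edgeR adjusted by Benjamini-Hochberg). DESeq2 gave RBM10 an adjusted p of 0.00157. A normalized count here is a count divided by the library size after TMM scaling, brought to the mean size of the 6 libraries. Of the epithelial markers 5 of 5 were abundant, with a summed level of 442040 to 840142 in sh-NC and 348849 to 517758 in shRBM10. Of 3 lung markers, NKX2-1 and SFTPB stayed at 2.71 normalized counts or less in every library, and NAPSA had 13.5 to 16.4 in sh-NC against 9.24 to 12.5 in shRBM10. The summed level of 5 markers of other cell types was 102.7 to 189.5 in sh-NC and 58.5 to 81.6 in shRBM10, of which nearly all came from CDH5 and PDGFRB, with PTPRC, PECAM1 and GFAP under 10 in every library. Of the retina markers looked at, CRX had at most 3.08 normalized counts and NRL 62.3 to 157. The part of these markers in the results was not tested.

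In the sh-NC control cells the proteasome genes were abundant but far from equal. By TPM (a level per transcript length, scaled to the same total in each library), the summed level of the 44 genes was 8406, 8498 and 8361 in the 3 sh-NC libraries. That is 0.841%, 0.850% and 0.836% of all TPM. The median gene of the core particle had 300.0 TPM and that of the regulatory particle 78.6 TPM, against 7.79 TPM for the 13740 genes above 0 in all 3 libraries. Core genes ran from 49.4 TPM (PSMA5) to 671 TPM (PSMA7), which is 13.6-fold, although each alpha and beta subunit enters the barrel in the same number. The regulatory particle ran from 9.66 TPM (PSMD12, of the lid) to 469 TPM (PSMD2, of the base), 48.6-fold. Activators spanned the widest range, with PSME2 at 502 TPM, PSME1 at 410.3 TPM, PSME3 at 100.2 TPM, the inhibitor PSMF1 at 37.2 TPM and PSME4 at 2.72 TPM. The chaperones lay between 11.6 TPM (PSMD5) and 128.8 TPM (PSMG3). PSMB10 was at 37.0 TPM, below the 518 TPM of PSMB7, the constitutive subunit whose place it takes, and the left-out PSMB8 and PSMB9 were at 125.6 and 34.6 TPM. PSME4 was listed at 2.72, 0.45 and 2.73 TPM, PSMD12 at 9.66, 4.21 and 10.3 TPM and PSMD1 at 15.2, 5.96 and 16.5 TPM, so that sh-NC replicate 2 was the lowest library for each of these genes.

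**Figure D1:**
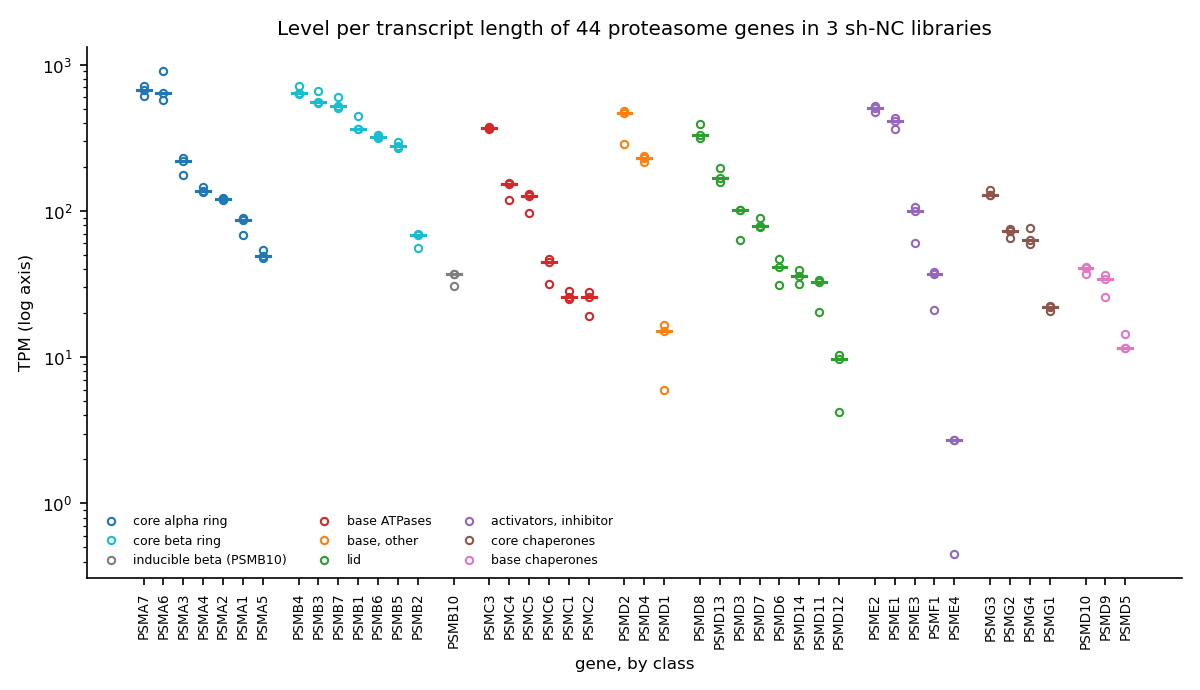
Levels of the 44 proteasome genes in the 3 sh-NC libraries, in TPM on a log axis, by class and ordered within each class; circles are libraries and bars their median. Medians run from 2.72 TPM (PSME4) to 671 TPM (PSMA7), and sh-NC replicate 2 gives the lowest circle of PSME4 at 0.45 TPM.

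The start regions of the genes are shown for 5 members as examples. All of them hold matches to motifs searched below, so they do not stand for all 44 genes. PSMD3 and PSME4 are among the members with an unadjusted p under 0.05 in edgeR, and PSME1, PSME2 and PSMB10 are not. RefSeq gave start windows for 38 of the 44 genes, 46 windows in all, each of 250 bases before and 50 after an annotated start. Letters were searched on both strands: TGACNNNGC (the core of the antioxidant response element, the kind of site that NFE2L1 and small Maf proteins bind), GAAA followed after any 2 bases by GAAA (ISRE, the interferon-stimulated response element), CCGGAAG (an ETS site), CCAAT and TTCNNNGAA (an interferon-gamma activated site). TGACNNNGC occurred in 14 of the 46 windows (30.4%), against 13.4% of all 35116 windows and 14.1% of those of genes in the table. CCGGAAG also occurred in 14 windows (30.4%, against 10.3% and 14.5%). The ISRE was in 6 windows (13.0%, against 3.57% and 3.08%), those of PSMA4, PSMB4, PSMB10, PSME1, PSME2 and PSMG4. CCAAT was in 18 windows (39.1%, against 34.6% and 34.2%) and TTCNNNGAA in 6 (13.0%, against 7.66% and 6.48%). The 200 bases before the start are printed 5′ to 3′ on the strand of the gene (GRCh38.p14), with matches to TGACNNNGC or the ISRE, on either strand, in capitals. PSME1 (chr14:24135994-24136193, plus strand) and PSME2 (chr14:24146611-24146810, minus strand) are neighbours that encode the partners of one activator ring, and both hold a TGACNNNGC match, 86 and 175 bases before the start. PSME2 holds an ISRE match 28 bases before its start, and that of PSME1 lies just after its start, outside the stretch shown. PSMB10 (chr16:67936851-67937050, minus strand) holds an ISRE match 21 bases before the start. PSMD3 (chr17:39980607-39980806, plus strand) and PSME4 (chr2:53970994-53971193, minus strand) hold TGACNNNGC matches that begin 37 and 34 bases before the start. Matches of different motifs overlapped in 0 places among the windows of the members. A match describes letters and not a bound site.
PSME1: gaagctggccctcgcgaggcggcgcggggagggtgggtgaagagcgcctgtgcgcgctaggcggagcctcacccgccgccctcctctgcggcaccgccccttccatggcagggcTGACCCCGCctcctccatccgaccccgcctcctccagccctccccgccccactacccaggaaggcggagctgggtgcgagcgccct
PSME2: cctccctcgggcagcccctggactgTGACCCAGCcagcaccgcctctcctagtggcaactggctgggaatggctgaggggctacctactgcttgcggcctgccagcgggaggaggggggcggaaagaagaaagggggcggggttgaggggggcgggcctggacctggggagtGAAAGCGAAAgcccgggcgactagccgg
PSMB10: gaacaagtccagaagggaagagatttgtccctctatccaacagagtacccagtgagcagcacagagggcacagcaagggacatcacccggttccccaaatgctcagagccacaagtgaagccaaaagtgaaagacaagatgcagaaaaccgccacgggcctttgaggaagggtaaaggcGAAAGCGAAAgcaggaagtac
PSMD3: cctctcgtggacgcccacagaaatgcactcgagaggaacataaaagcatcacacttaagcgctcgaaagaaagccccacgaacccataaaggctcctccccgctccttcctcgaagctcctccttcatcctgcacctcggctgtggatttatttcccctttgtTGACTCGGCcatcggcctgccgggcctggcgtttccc
PSME4: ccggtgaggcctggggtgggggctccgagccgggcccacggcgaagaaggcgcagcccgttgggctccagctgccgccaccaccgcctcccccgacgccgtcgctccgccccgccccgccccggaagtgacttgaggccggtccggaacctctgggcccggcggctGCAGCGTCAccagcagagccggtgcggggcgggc

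In shRBM10, 14 of the 44 genes had a higher fitted level than in sh-NC and 30 a lower one, with a median log2 fold change of -0.27, against 0.03 over all genes tested. No member passed an adjusted p of 0.05 in edgeR's quasi-likelihood test, where 0.0158% of all genes did, and the lowest adjusted p of a member was 0.156 (PSME4). At an unadjusted p under 0.05, 4 members were higher (PSME4, PSMC2, PSMD1 and PSMD10; 9.09% of the 44, against 15.7% of all genes) and 3 lower (PSMD2, PSMD3 and PSMA7; 6.82%, against 8.6% of all genes). Both shares lie under the background. The groups did not overlap in 1 gene that was higher in shRBM10 (PSME4), where 13.8% of all genes were, and in 10 that were lower (22.7%, against 16.2% of all genes). DESeq2 called 1 member higher at an adjusted p under 0.05, PSME4 (adjusted p = 0.0334), and 0 lower, against 3.8% and 1.43% of all genes.

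The excess of lower fitted levels was not seen without 1 control library. Against the sh-NC mean of each gene, the median log2 level of the 44 genes was -0.32, 0.47 and -0.34 in sh-NC replicates 1, 2 and 3, and -0.41, -0.16 and -0.28 in shRBM10 libraries A, B and C. All 3 shRBM10 libraries thus lay beside sh-NC replicates 1 and 3, and sh-NC replicate 2 stood alone at the top. Without that replicate the median over the 44 genes was 0.04, with 24 higher and 20 lower. With all 6 libraries and each library's trend on transcript length removed, it was -0.03, with 20 higher and 24 lower. Groups without overlap did not follow the median. Without sh-NC replicate 2 they numbered 15 lower members, where 28.5% of all genes were lower, and 8 higher, where 18.3% were higher. Of all counts in the library, the 44 genes took 0.731%, 0.893% and 0.718% in sh-NC and 0.681%, 0.732% and 0.683% in shRBM10, with 95% Wilson intervals at most 0.00865 percentage points wide, which cover counting error only. sh-NC replicate 2 also had a TMM factor of 0.738, where the other libraries had 1.03 to 1.08.

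Transcript length and GC content moved with these differences. In the 20% of tested genes with the shortest transcripts (up to 1958 bases), the median log2 level against the sh-NC mean was 0.45 in sh-NC replicate 2 and -0.29 and -0.30 in replicates 1 and 3. In the longest 20% it was -0.67 in replicate 2 and 0.24 and 0.23 in replicates 1 and 3. Of the 44 proteasome genes 25 belong to the shortest 20% and 1, PSME4, to the longest, with a median length of 1013 bases for the core genes, 1991 for the regulatory particle and 3397 for all genes tested. shRBM10 library A had -0.47 in the shortest 20% and 0.80 in the longest, B -0.27 and 0.53, and C -0.24 and 0.14. By GC content, library A had 1.13 in the poorest 20% (up to 41.3% GC) and -0.60 in the richest, B 0.82 and -0.44, and C 0.06 and -0.07. The members range from 36.8% to 60.1% GC, with 7 in the poorest 20% and 1 in the richest. Most of the values below moved when sh-NC replicate 2 was left out or when each library's trend on length or GC content was removed. Some of those values stand beside them, though not for every member or every setting. Of the 44 genes 10 changed sign without sh-NC replicate 2, 6 with the length trend removed and 7 with the GC trend removed.

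**Figure D2:**
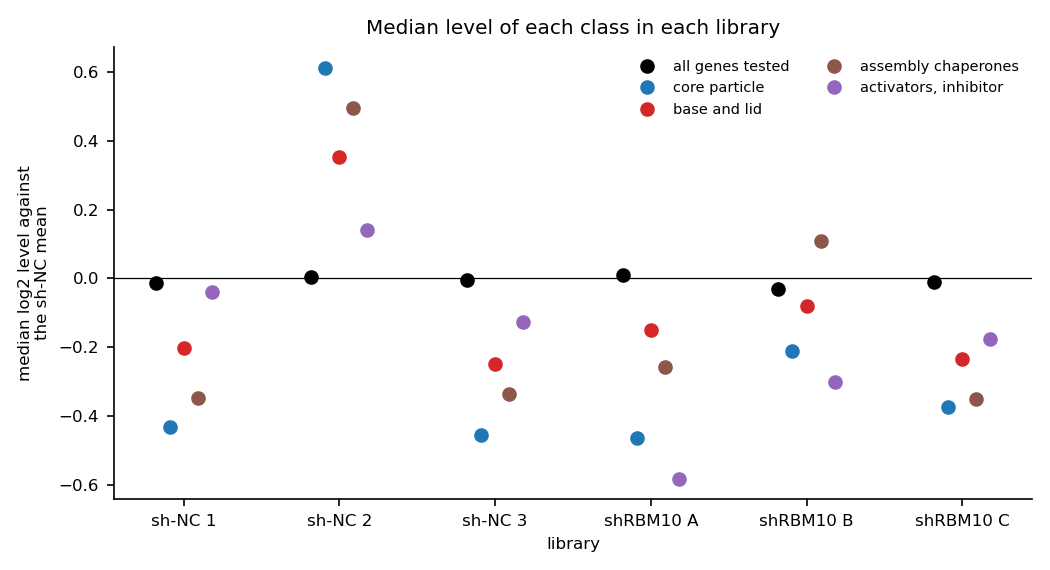
Median log2 level of each class of proteasome genes in each of the 6 libraries, relative to the mean of the 3 sh-NC libraries (vertical axis); black points are all genes tested. The core particle sits at 0.61 in sh-NC replicate 2 and between -0.46 and -0.21 in the other 5 libraries, while all genes lie near 0 in every library.

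**Figure D3:**
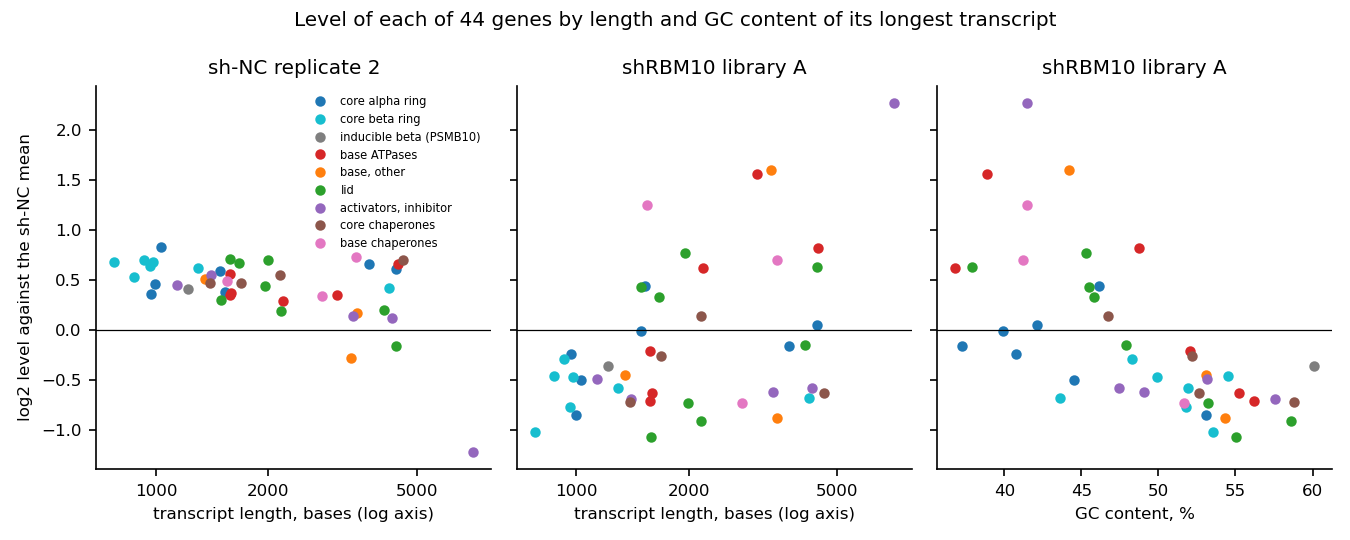
Log2 level of each of the 44 genes against the sh-NC mean, by length (log axis, bases) or GC content (%) of its longest transcript, in sh-NC replicate 2 (left) and shRBM10 library A (middle and right); colours are classes. In replicate 2 most genes lie above 0 and PSME4, the longest, lies lowest. In library A the GC-poor genes tend to lie higher than the GC-rich ones, with exceptions. PSMB2 (43.6% GC) and PSMA6 (44.5%) lie at -0.68 and -0.50 there, below PSMG2 (52.2%) at -0.26.

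The alpha ring of the core, which opens and closes the entry, had 1 gene that was higher (PSMA1) and 6 that were lower, with a median log2 fold change of -0.06. That median depended on the setting. Without sh-NC replicate 2 it was 0.22, with 6 of the 7 genes above 0, and with the GC trend removed it was -0.69, with 6 of 7 below 0. PSMA7 was the lowest of them, at 6519, 11357 and 6826 normalized counts in sh-NC against 4574, 5416 and 5762 in shRBM10. The groups did not overlap, and each shRBM10 library lay below each sh-NC library. Its log2 fold change was -0.65 (SE 0.28, adjusted p = 0.196, edgeR, Benjamini-Hochberg). It was -0.43 without sh-NC replicate 2, -0.35 with the length trend removed and -0.49 with the GC trend removed. PSMA1, the highest, had 1144, 1702 and 1089 in sh-NC against 1785, 1664 and 1303 in shRBM10. sh-NC replicate 2 lay among the shRBM10 libraries there, and the log2 fold change was 0.27 (SE 0.25, adjusted p = 0.492 in edgeR), 0.42 without that replicate, 0.51 with the length trend removed and 0.01 with the GC trend removed. PSMA4, whose tail helps to close the gate, had nearly equal means, of 2967 ± 1345 (SD, n = 3) and 2964 ± 378 (SD, n = 3). That equality came with a wide spread among the controls, and the log2 fold change was 0.35 without sh-NC replicate 2, -0.29 with the length trend removed and -0.60 with the GC trend removed. Both corrections used its longest transcript, of 4411 bases, which need not be the one expressed. PSMA6 showed the widest spread among the controls, from 5909.8 to 18327, against 7117 to 8218 in shRBM10.

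All 7 genes of the beta ring had a lower fitted level in shRBM10, with log2 fold changes from -0.76 to -0.25 and a median of -0.39. None of the 7 passed the test. The median was 0.01 without sh-NC replicate 2, -0.05 with the length trend removed and -0.37 with the GC trend removed. The 3 genes of the catalytic subunits come first. PSMB5, which carries the chymotrypsin-like site that bortezomib blocks, had 2918, 6166 and 2974 normalized counts in sh-NC against 2696, 3368 and 3371 in shRBM10. PSMB6, the caspase-like subunit, had 2509, 4658 and 2527 against 2355, 2920.3 and 2865. PSMB7, the trypsin-like subunit, had 5063, 11627 and 5098 against 5242, 5885 and 5482. In each of the 3, sh-NC replicate 2 was far above the other 5 libraries, which lay close together, and the groups overlapped. Their log2 fold changes were -0.35 (SE 0.32), -0.25 (SE 0.29) and -0.39 (SE 0.34), and they turned to 0.01, 0.03 and 0.04 without sh-NC replicate 2. With the length trend removed they were -0.05, 0.08 and -0.02, and with the GC trend removed -0.24, -0.04 and -0.37.

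Among the noncatalytic beta genes PSMB3 had the largest difference, with 3792, 8672 and 3789 normalized counts in sh-NC against 2673, 3396 and 3529.8 in shRBM10. PSMB2 had 3976, 6317 and 3876 against 2938, 3211 and 3676. In both genes every shRBM10 library lay below every sh-NC library. The log2 fold change was -0.76 (SE 0.34, adjusted p = 0.208) for PSMB3 and -0.53 (SE 0.26, adjusted p = 0.231) for PSMB2 in edgeR's quasi-likelihood test. Without sh-NC replicate 2 they were -0.32 and -0.34. With the length trend removed PSMB3 and PSMB2 were at -0.38 and -0.75, and with the GC trend removed at -0.58 and -0.94. PSMB1 and PSMB4 had log2 fold changes of -0.28 and -0.51, with overlapping groups, which were 0.18 and -0.12 without sh-NC replicate 2 and 0.11 and -0.16 with the length trend removed.

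The inducible subunit PSMB10 replaces PSMB7 in the immunoproteasome. It was at 367, 581 and 361 normalized counts in sh-NC against 339.8, 515 and 536 in shRBM10, so that the groups overlapped. Its log2 fold change was 0.09 (SE 0.30), -0.06 without shRBM10 library C, 0.27 without sh-NC replicate 2, 0.35 with the length trend removed and 0.39 with the GC trend removed. The other inducible subunits, PSMB8 and PSMB9, which the choice of members left out, had log2 fold changes of -0.22 (SE 0.28) and 0.00 (SE 0.31), also with overlapping groups. With the GC trend removed these were 0.01 and 0.20.

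The regulatory particle divided in direction, with 8 of 17 genes higher and 9 lower and a median log2 fold change of -0.16. With the GC trend removed 4 were above 0 and 13 below, with a median of -0.24. Among the 6 ATPases that form the ring of the base, PSMC2, PSMC6 and PSMC1 were higher and PSMC5, PSMC4 and PSMC3 lower, with a median of 0.11. The median was 0.25 without sh-NC replicate 2 and -0.10 with the GC trend removed, and PSMC6 turned from 0.44 to -0.33 in the latter. PSMC2 had 826, 1232 and 838 normalized counts in sh-NC against 2857, 2105 and 1070.0 in shRBM10. Libraries A and B lay above every control, and C below sh-NC replicate 2. The log2 fold change was 1.06 (SE 0.35, adjusted p = 0.158, edgeR, Benjamini-Hochberg), 1.18 without sh-NC replicate 2, 0.72 without shRBM10 library A and 0.20 with the GC trend removed (38.9% GC). PSMC3, the lowest of the ATPase genes, had 6523, 12648 and 6578 against 5257, 6209.5 and 6546. Its groups overlapped, with a log2 fold change of -0.52 (SE 0.31) that was -0.21 without sh-NC replicate 2 and -0.26 with either trend removed.

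The 2 large scaffold subunits of the base had values in opposite directions. PSMD1 had 637, 497 and 681 normalized counts in sh-NC against 1843, 1432 and 603 in shRBM10. Here libraries A and B were over the controls and C was among them. Its log2 fold change was 1.09 (SE 0.37, adjusted p = 0.164, edgeR, Benjamini-Hochberg), 0.75 without shRBM10 library A and 0.60 with the GC trend removed. Without sh-NC replicate 2 it was 0.88 (unadjusted p = 0.0570, edgeR), and with the length trend removed 1.01. PSMD2 had 17084, 20565 and 17338 in sh-NC against 9968, 11125 and 13686 in shRBM10. Every shRBM10 library lay below every control. The log2 fold change of PSMD2 was -0.66 (SE 0.26, adjusted p = 0.177, edgeR, Benjamini-Hochberg), -0.65 without sh-NC replicate 2, -0.75 with the length trend removed and -0.47 with the GC trend removed. PSMD4, the ubiquitin receptor of the base, had a log2 fold change of -0.35 (SE 0.28) with overlapping groups, -0.08 without sh-NC replicate 2, -0.07 with the length trend removed and -0.19 with the GC trend removed.

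Of the 8 lid genes 4 were higher and 4 lower, with a median log2 fold change of -0.05. With the GC trend removed 1 was above 0 and 7 below, with a median of -0.30. PSMD14, the deubiquitinase that takes the ubiquitin chain off, had 712, 1108 and 636 normalized counts in sh-NC against 1397, 1243 and 705 in shRBM10, with a log2 fold change of 0.45 (SE 0.32) that was 0.64 without sh-NC replicate 2 and 0.08 with the GC trend removed. PSMD8 had 5478, 13233 and 5608 against 3849, 5026 and 5170.3. PSMD3 had 2632, 3212 and 2576 against 1491, 1846 and 2273. In the last 2 genes the groups did not overlap, and the shRBM10 libraries were the lower ones, while in PSMD14 library C lay among the controls. The log2 fold change was -0.79 for PSMD8 (SE 0.36, adjusted p = 0.209) and -0.59 for PSMD3 (SE 0.24, adjusted p = 0.184) in edgeR's quasi-likelihood test. Without sh-NC replicate 2, that of PSMD8 was -0.32 and that of PSMD3 -0.56. PSMD8 was at -0.51 with the length trend removed, and PSMD3 at -0.32 with the GC trend removed. The remaining lid genes lay between -0.60 (PSMD13) and 0.41 (PSMD12). PSMD13 was at -0.14 without sh-NC replicate 2 and -0.37 with the length trend removed. PSMD12 was at 0.25 without that replicate, 0.17 with the length trend removed and -0.32 with the GC trend removed.

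The activators dock on the same face of the core as the regulatory particle. PSME4, a nuclear activator tied to histone turnover, had 260.3, 86.3 and 257 normalized counts in sh-NC against 971, 609 and 269.9 in shRBM10. It was the only one of the 44 genes with every shRBM10 library above every control, though library C exceeded sh-NC replicate 1 by little. The log2 fold change was 1.61 (SE 0.52, adjusted p = 0.156, edgeR, Benjamini-Hochberg), 1.16 without sh-NC replicate 2, 1.12 without shRBM10 library A, 1.14 with the length trend removed and 0.91 with the GC trend removed. PSME3, the nuclear relative of PSME1 and PSME2, had 4234, 4765 and 3959.7 against 2819, 3003 and 3591. PSMF1, the inhibitor, had 4056, 4517 and 3921 against 2783, 3383 and 3756. For both the groups did not overlap and the controls were higher. Their log2 fold changes were -0.46 (SE 0.22, adjusted p = 0.221) and -0.33 (SE 0.22, adjusted p = 0.346) in edgeR's quasi-likelihood test, and -0.47 and -0.35 without sh-NC replicate 2. With the length trend removed PSME3 and PSMF1 were at -0.54 and -0.54, and with the GC trend removed at -0.49 and -0.46.

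PSME1 and PSME2 encode the interferon-inducible activator ring and share a chromosomal neighbourhood. PSME2 had 3901, 7071 and 3478 normalized counts in sh-NC against 2991, 3615 and 3285 in shRBM10, and PSME1 had 4182, 6799 and 3944 against 3553, 4152 and 4399. Both pairs of groups overlapped, with sh-NC replicate 2 on top. The log2 fold changes were -0.55 (SE 0.30) and -0.30 (SE 0.27), and -0.24 and -0.09 without sh-NC replicate 2. They were -0.27 and -0.01 with the length trend removed and -0.26 and -0.14 with the GC trend removed. As a class the 5 genes had a median of -0.33, or -0.24 without that replicate.

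**Figure D4:**
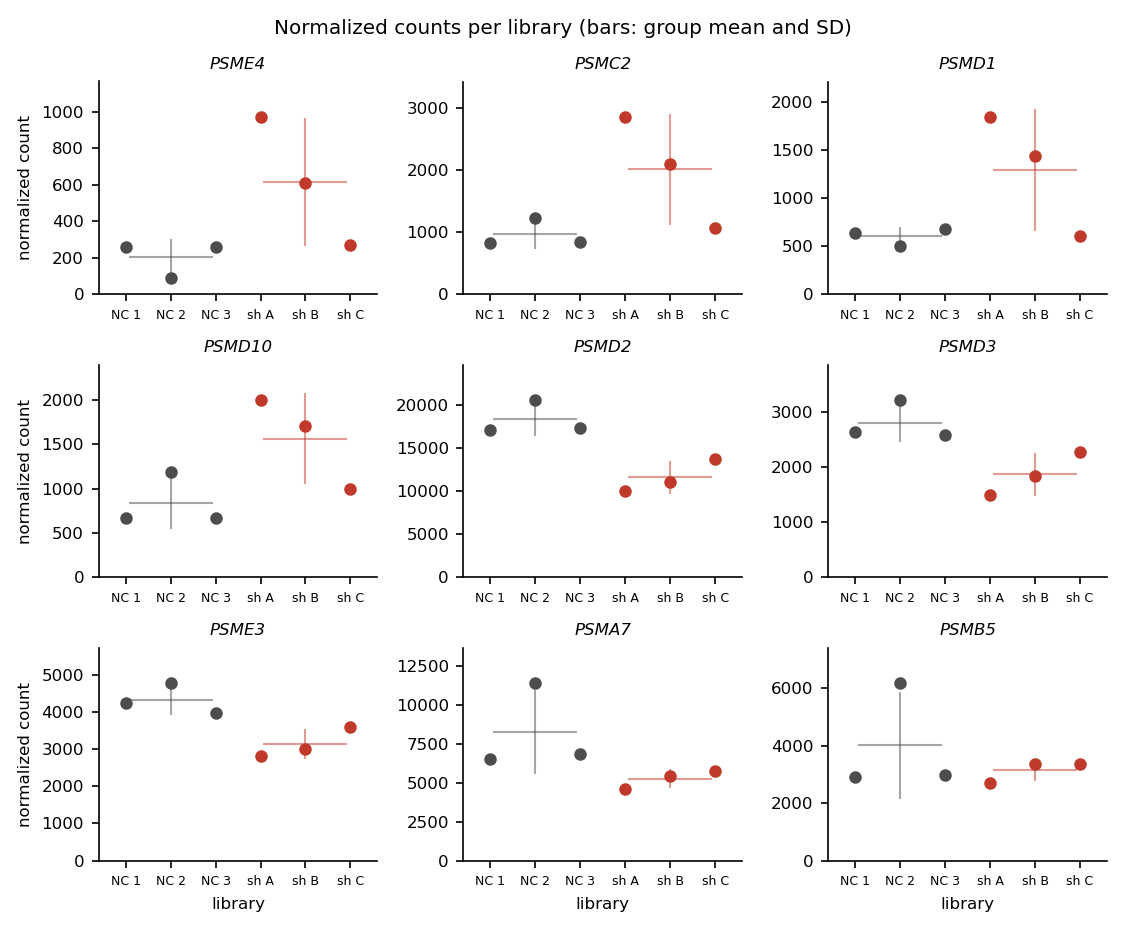
Normalized counts of 9 members in each library (points; vertical axes start at 0), with the group mean and SD as bars; grey is sh-NC and red shRBM10. In PSME4, PSMC2, PSMD1 and PSMD10 libraries A and B lie over the controls and C close to them, in PSMD2, PSMD3, PSME3 and PSMA7 all 3 shRBM10 libraries lie below the controls, and in PSMB5 only sh-NC replicate 2 stands out.

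The assembly chaperones guide rings into place and leave the finished particle. PSMD10 (gankyrin), which holds an ATPase of the base, had 669, 1182 and 664 normalized counts in sh-NC against 1997, 1704 and 992 in shRBM10. Libraries A and B exceeded all controls, and C lay below sh-NC replicate 2. The log2 fold change was 0.90 (SE 0.33, adjusted p = 0.172, edgeR, Benjamini-Hochberg), 1.14 without sh-NC replicate 2, 1.17 with the length trend removed and 0.19 with the GC trend removed (41.5% GC). The other base chaperones were PSMD5 at 0.26 (SE 0.42) and PSMD9 at -0.42 (SE 0.25). PSMD5 was at 0.75 without sh-NC replicate 2 (unadjusted p = 0.0499, edgeR), 0.13 with the length trend removed and -0.53 with the GC trend removed. PSMD9 had 1236, 1727 and 1133 in sh-NC against 822, 1146 and 1101 in shRBM10.

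Of the chaperones of the core, PSMG3 had 1140.0, 2016 and 1198 normalized counts against 882, 1059.7 and 1138. PSMG4 had 493, 1165 and 496 against 464, 446 and 472. In both the shRBM10 libraries lay below the controls without overlap, by a small margin to sh-NC replicates 1 and 3. Their log2 fold changes were -0.50 (SE 0.27) and -0.64 (SE 0.35), and -0.27 and -0.19 without sh-NC replicate 2. PSMG3 was at -0.24 with the length trend removed and -0.20 with the GC trend removed, and PSMG4 at -0.95 and -0.49. Both corrections used the longest transcript of PSMG4, of 4603 bases, which need not be the one expressed. PSMG1, which pairs with PSMG2, had 253, 486 and 254 against 365, 388 and 248, with overlapping groups and a log2 fold change of 0.02 (SE 0.34), 0.31 without sh-NC replicate 2, 0.20 with the length trend removed and -0.20 with the GC trend removed. PSMG2 was at -0.13 (SE 0.28), 0.10 without that replicate, 0.11 with the length trend removed and 0.01 with the GC trend removed.

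**Figure D5:**
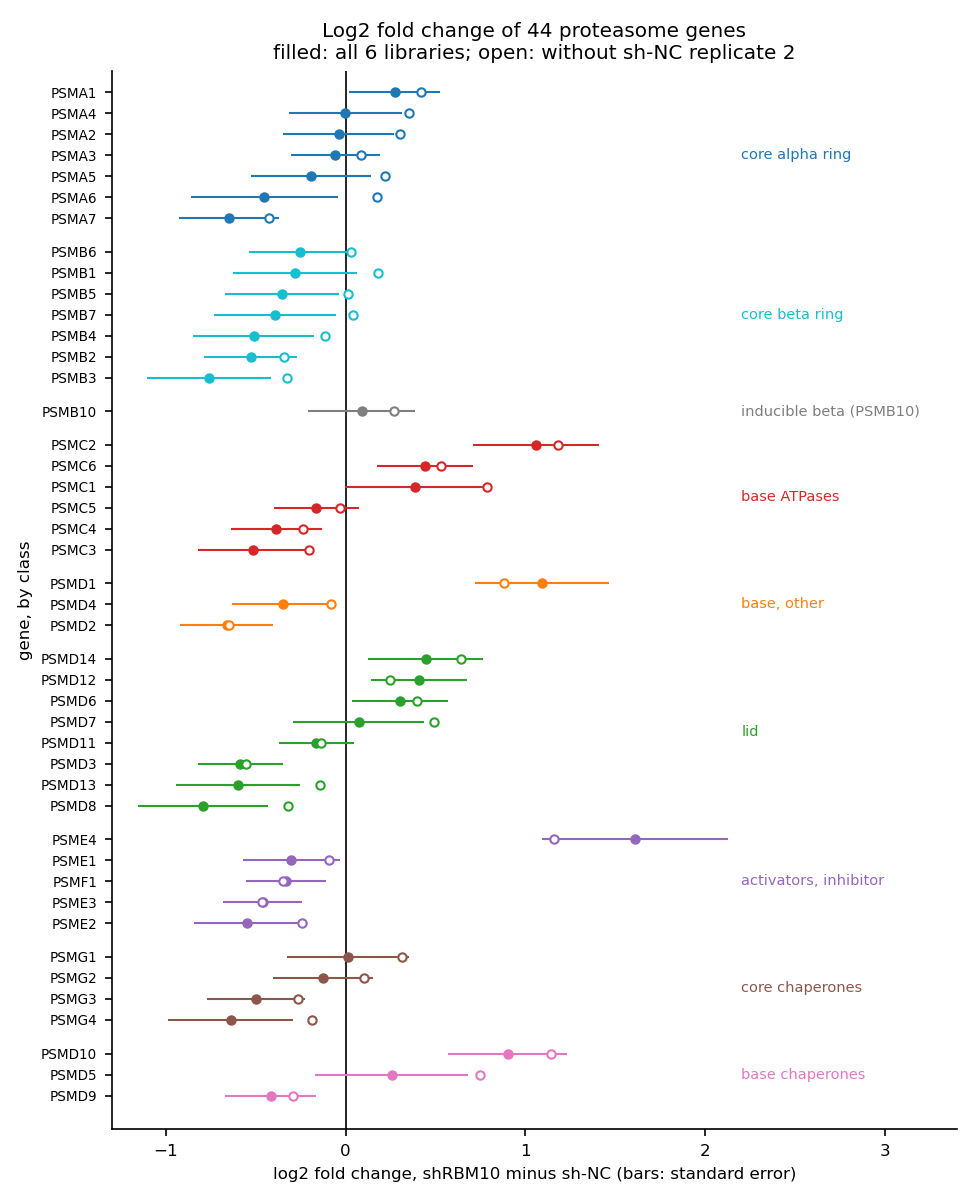
Log2 fold change (shRBM10 minus sh-NC) of the 44 genes by class; filled points with standard errors use all 6 libraries and open points leave out sh-NC replicate 2. Of the 14 core genes 13 lie below 0 with all libraries and 4 without the replicate, while PSME4, PSMC2, PSMD1, PSMD10, PSMD2 and PSMD3 stay on their side.

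The 3 settings differed in which members passed an unadjusted p of 0.05. Without sh-NC replicate 2, 5 members were higher at an unadjusted p under 0.05 in edgeR (PSMD10, PSMD5, PSMC1, PSME4 and PSMC2; 11.6% of all genes were) and 4 lower (PSMD2, PSME3, PSMA7 and PSMD3; 12.7% of all genes). With each library's trend on length removed, 8 were higher (14.8% of all genes) and 9 lower (13.7% of all genes), and the medians were -0.04 for the core, 0.06 for the regulatory particle and -0.27 for the activators. With the GC trend removed, 9 of the 44 genes were above 0 and 35 below, with medians of -0.53 for the core, -0.24 for the regulatory particle and -0.26 for the activators, and 1 was higher at an unadjusted p under 0.05 (PSME4; 8.51% of all genes) and 3 lower (PSMB2, PSMD2 and PSME3; 9.75% of all genes). Of the 7 members with an unadjusted p under 0.05 in all 6 libraries, PSME4 and PSMD2 kept it under each of these 3 settings. Scaling by library size alone moved the median of all genes to 0.16 and that of the 44 genes to -0.05, a distance of -0.21 from all genes, against -0.29 with TMM.

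The 2 matched genes of other products gave a different picture each. PSMC3IP, a factor of meiotic recombination, had 125, 127 and 138 normalized counts in sh-NC against 90.3, 93.9 and 84.5 in shRBM10, with no overlap and a log2 fold change of -0.54 (SE 0.27, adjusted p = 0.231, edgeR). PSME3IP1, a partner of PSME3 in the nucleus, was at -0.01 (SE 0.27).

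RBM10 is a splicing factor, so the share of each gene's counts per RefSeq transcript was compared. Of the 44 genes 27 had several rows with enough counts. In 4 of them (PSMB3, PSMC4, PSME1 and PSME2) the table lists a transcript again as a copy with equal counts, and the only rows of PSMB3 are such a pair. With the rows of each copied transcript summed, which was chosen after seeing the data, 26 members could be tested, of which 0 passed an adjusted or unadjusted Simes p of 0.05 in edgeR (2.69% of all genes passed the unadjusted one). All rows as deposited gave the following values. Transcript usage shifted in 0 of these at an adjusted Simes p under 0.05 (edgeR's diffSpliceDGE, lowest adjusted p = 0.999994), where 0.0958% of the 8348 genes tested did, and in 0 at an unadjusted Simes p under 0.05, where 2.78% of all genes did. The smallest unadjusted Simes p of a member was that of PSMG1 (0.216 in edgeR). Its transcript with the lowest unadjusted p (0.0727 in edgeR), NM_001261824, took 0%, 2.82% and 3.55% of its counts in sh-NC against 18.8%, 8.17% and 10.9% in shRBM10. Its transcript NM_203433 (unadjusted p = 0.490) took 40.1%, 27.0% and 38.7% of its counts in sh-NC against 22.4%, 22.8% and 23.3% in shRBM10, without overlap, at 248 to 486 normalized counts for the whole gene. In PSMD10 the minor transcript NM_170750 took 17.8%, 21.7% and 22.0% in sh-NC and 13.2%, 15.0% and 14.7% in shRBM10. For PSMB5 the major transcript held between 90.8% and 91.4% of the gene in sh-NC, and between 90.9% and 92.2% in shRBM10. PSMG3 and PSMG4 gave 66.7% to 75.9% and 48.7% to 53.2% for their major transcript in sh-NC, against 62.0% to 66.5% and 40.5% to 45.7%. Counts per transcript are estimates of how shared reads divide, and a shift that was not detectable at this depth is not shown to be absent.

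Genes that work with the proteasome were listed apart. Of 17 partners without a PSM symbol, 10 were higher and 7 lower (median log2 fold change 0.06). At an unadjusted p under 0.05 in edgeR, the ubiquitin shuttle UBQLN1 (0.86, SE 0.28) and the activator ZFAND5 (0.60, SE 0.24) were higher, and the ubiquitin receptor ADRM1 (-0.71, SE 0.28) and UBQLN4 (-0.52, SE 0.21) lower. Over all genes 15.7% were higher and 8.6% lower by that rule. With the GC trend removed, ZFAND5 was at -0.06, UBQLN1 at 0.43, ADRM1 at -0.36 and UBQLN4 at -0.29, and of these UBQLN1 kept an unadjusted p under 0.05 in edgeR. Without sh-NC replicate 2, ZFAND5 was at 0.37 (unadjusted p = 0.0663, edgeR), and the other 3 genes kept theirs. Among 7 genes of the NFE2L1 axis, the deglycosylase NGLY1 that activates NFE2L1 was higher (1.06, SE 0.35), with 112, 115 and 114 normalized counts in sh-NC against 309, 272 and 131 in shRBM10. The small Maf gene MAFF was lower (-0.64, SE 0.20), with 1522, 1456 and 1519 against 953, 905 and 1019, while NFE2L1 itself was at -0.07 (SE 0.25). In both NGLY1 and MAFF the groups did not overlap. With the GC trend removed they were at 0.38 and -0.35, with unadjusted p-values of 0.0977 and 0.0573 in edgeR. Of 6 ubiquitin and ubiquitin-activating enzyme genes, UBA6, an activating enzyme, was higher (1.29, SE 0.42, 0.67 with the length trend removed and 0.55 with the GC trend removed) and the remaining 5 were below 0 without passing. In the 6 genes around the segregase VCP, 0 passed an unadjusted p under 0.05 in edgeR or an adjusted one in edgeR or DESeq2. No gene of these 4 lists passed an adjusted p of 0.05 in edgeR, and DESeq2 called 1, UBA6.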

How the data were processed

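RNA-seq of 6 PC9 libraries (3 sh-NC, 3 shRBM10), sequenced by BGI-Tech, was read from the table per gene (16306 genes) and the table per transcript (76563). The deposited read counts are estimated counts per library, of which 87.5% are whole in the table per gene, and were rounded. TPM values were computed by the authors and were used for the sh-NC libraries only. The aligner and counter are not given in the sources used here, and the submitters' processing notes name build hg38. In each table, group means and the other measures were left out. Of the columns that hold values of single libraries, 33 over both tables together were not used. Many subunit genes have processed pseudogenes, so reads may be shared with these copies.

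Genes were kept by filterByExpr, scaled by TMM and tested with edgeR's quasi-likelihood test (edgeR 4.0.16, limma 3.58.1, R 4.3.3), with 6 libraries, no covariate and Benjamini-Hochberg adjustment over the 12620 genes; the standard error is the log2 fold change over the square root of its F. DESeq2 1.42.0, limma-voom, other scalings, other filters, GC removal and leaving out each library were alternatives. GC content and length are those of the longest GENCODE 29 transcript, found for 99.6% of genes, and trends were removed as lowess offsets (span 0.3). That transcript need not be the one expressed, so the corrections of single genes may be off. Levels against the sh-NC mean use a pseudocount of 0.5. Windows at gene starts and coordinates are from RefSeq (GRCh38.p14); where a gene has several windows, all were searched. The scripts were tested on simulated data. Values per library are given for members with an unadjusted p under 0.05 or groups without overlap, the catalytic subunits, and the highest and lowest fold change of each class; of the other lists, genes with an unadjusted p under 0.05 are named. Members and lists were chosen with earlier results of these data known.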

Additional observations from a re-analysis of the deposited data

How the results depend on the processing

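No paired analysis was possible because shRBM10 libraries B and C carry no replicate number, so the groups share fewer than 2 numbers. No member was called at an adjusted p under 0.05 in edgeR under the other scalings, filters, the GC or the length correction or any left-out library, nor in limma-voom; DESeq2 called 1 (PSME4), and the GC trend removed together with sh-NC replicate 2 left out called 3 (PSMD10, PSMD2 and PSMC2), where 1174 genes passed. That setting and the length correction were chosen after seeing the data. Members higher at an unadjusted p numbered 1 with the GC trend removed, 7 with replicate 2 also left out, 8 with the length trend removed, and 0 to 7 over single libraries left out (0 without shRBM10 A, 7 without C). The shares of all genes in these settings were 8.51%, 15.3% and 14.8%, then 5.64% without A and 20.3% without C. Members lower numbered 5 in DESeq2, with RLE and without a filter, 9 with the length trend removed, and 0 to 6 over left-out libraries (0 without A or without B, 6 without C or without sh-NC replicate 3). Of all genes, 8.79% were lower by that rule in DESeq2, 9.002% with RLE, 6.8% without a filter and 13.7% with the length trend removed. Over left-out libraries it was 3.15% without A, 3.01% without B, 15.9% without C and 6.98% without sh-NC replicate 3. Members whose groups did not overlap numbered 4 higher by library size only and 1 to 9 over left-out libraries (8 without sh-NC replicate 2, 9 without shRBM10 C), and 10 to 17 lower (17 without C). Of all genes, 15.9% were higher by library size only, 18.3% without sh-NC replicate 2 and 33.0% without C. Over left-out libraries the share of all genes that was lower ran from 17.2% (without B, 13 members) to 30.5% (without C). It was 28.5% without sh-NC replicate 2 (15 members) and 18.4% without replicate 3 (13 members). Among the scalings it was 16.3% with RLE (12 members), 14.1% with the upper quartile (10 members) and 11.3% by library size only (11 members). Some of these counts moved along with the share over all genes, such as those without C, and others did not. With the length trend removed, members higher rose from 4 to 8, while the share over all genes went from 15.7% to 14.8%. Without sh-NC replicate 3, members lower rose from 3 to 6, while that share went from 8.6% to 6.98%. The median of the activators was 0.071 with GC removed and replicate 2 left out. Among the members given by library, that setting also turned PSMB5 (0.18), PSMB6 (0.28), PSMB7 (0.12), PSMC3 (0.074), PSME2 (0.071), PSMG3 (0.054) and PSMG4 (0.011); the length correction turned PSMB6 (0.075). Over all 44 genes the length correction turned 6 (PSMA2, PSMA3, PSMB1, PSMB6, PSMC5 and PSMG2), the GC correction 7 (PSMC6, PSMD5, PSMD6, PSMD7, PSMD12, PSMG1 and PSMG2), and leaving out sh-NC replicate 2 10 (PSMA2 to PSMA6, PSMB1, PSMB5 to PSMB7 and PSMG2). Over left-out libraries PSMB5 ran from -0.54 to 0.015, PSMB6 from -0.41 to 0.028, PSMB7 from -0.60 to 0.043, PSMB10 from -0.057 to 0.27 and PSMG1 from -0.15 to 0.31; PSMG1 was also -0.0014 in DESeq2, -0.0018 with RLE and -0.20 with the GC trend removed. Transcript usage shifted in 0 members at an adjusted p under every setting run, copied transcripts summed included. Beyond the settings themselves, the cause of these moves was not tested.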
